A study of Mus musculus with 23 samples.

Results

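The 50 genes described here encode proteins that copy the genome during S phase of the cell cycle or prepare for it: 12 load replication origins with helicase or restrain that loading, 8 activate the helicase, 9 form or load the sliding clamp or coat single-stranded DNA, 9 are polymerase and primase subunits, 2 finish the lagging strand, 4 supply nucleotides, 4 are cyclin E and E2F genes and 2 assemble chromatin behind the fork. They were chosen by name, and each was read from the probe set that carries its symbol alone, taking the one with the highest mean where there were several. All 50 were measured, out of 19937 genes on the arrays. None of their values lay at the lower limit of the deposited scale (log2 3), the lowest being 4.50.

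The levels come from 23 mouse bone marrow samples in 9 groups, each hybridised to its own Affymetrix array, and a study of what loss of the myeloid transcription factor C/EBPα does to leukaemia driven by the fusion oncogene MLL-AF9. All mice carried floxed Cebpa and had received 3 injections of poly I:C, which induces Mx1-Cre; controls lacked Cre (Mx1-Cre- C/EBPa f/f) and knockouts carried it (Mx1-Cre+ C/EBPa f/f). Marrow that was never transplanted, taken 5 days after the injections, gave 4 control and 4 knockout samples of common myeloid progenitors (CMPs) and 3 control samples of granulocyte-macrophage progenitors (GMPs). The other 12 samples came from irradiated congenic recipients of KSLs (Lin- Sca-1+ c-Kit+ cells, rich in stem cells) or CMPs that had been cultured with IL-3 (10 ng/ml), thrombopoietin and stem cell factor (100 ng/ml each) and transduced with an MSCV virus for MLL-AF9 and GFP; marrow cells were given along for radioprotection. Control cells gave leukaemia, and its GMP-like compartment (L-GMPs) was sampled in 2 primary and 2 secondary recipients. Knockout cells gave leukaemia in recipients that were injected with vectors expressing IL-3 and GM-CSF 2 to 4 months after transplantation; the 1 primary and 2 secondary knockout L-GMP samples trace to 1 such leukaemia. Knockout recipients without leukaemia gave 2 samples of GFP+ KSLs and 3 of GFP+ CMPs, with replicates 1 and 2 of each type drawn from the same 2 mice. Whether other replicates came from separate animals was not stated, so a p-value reflects only how far these samples scatter, which may be technical.

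A replication origin is licensed when the origin recognition complex, Cdc6 and Cdt1 load the Mcm helicase on it in G1, and it fires when the kinases Cdc7-Dbf4 and Cdk2 turn that helicase on with Cdc45 and the GINS complex. Many of these genes are transcribed by E2F factors at the passage from G1 into S phase, and C/EBPα is known to hold back both the cycle and E2F-dependent transcription. In bulk samples, a smaller share of cells in S phase and less of these mRNAs per cell cannot be told apart.

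E2F binding is read from promoter DNA, so the promoters of the set were searched in RefSeq (GRCm38.p6), 250 bases before to 50 bases after each start site. Of the 50 genes 41 had an entry, and 15 of these (36.6%) held TTTCCCGC, TTTCGCGC, TTTGCCGC or TTTGGCGC on either strand, against 2.6% of the 27025 genes in the table and 3.48% of the genes measured here that had an entry. The NF-Y letters CCAAT stood in 58.5% of the 41 and in 41.1% of all genes, and the CHR letters TTTGAA, known from mitotic promoters, in 19.5% and 20.2%. These matches describe letters and not bound sites. Matches ran wholly before the start site in 8 genes. The windows of 4 of them that lay outside the annotated gene are shown, picked by position only. These genes encode a pair of helicase subunits, a helicase activator and a clamp loader subunit. They differ in how far they moved in the comparisons given further on. Capitals mark the E2F letters.
Mcm5, chr8:75109316-75109407, plus strand: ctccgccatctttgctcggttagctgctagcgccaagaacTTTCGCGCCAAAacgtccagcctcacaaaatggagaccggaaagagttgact
Mcm6, chr1:128359706-128359855, minus strand: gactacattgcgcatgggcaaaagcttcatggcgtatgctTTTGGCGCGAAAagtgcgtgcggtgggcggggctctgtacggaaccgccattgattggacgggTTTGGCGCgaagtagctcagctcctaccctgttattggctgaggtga
Gins3, chr8:95633478-95633558, plus strand: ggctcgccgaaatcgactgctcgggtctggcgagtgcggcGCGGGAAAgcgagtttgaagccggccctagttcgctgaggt
Rfc3, chr5:151651209-151651258, minus strand: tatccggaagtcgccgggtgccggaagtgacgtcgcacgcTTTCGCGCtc
In Mcm5 and in the first block of Mcm6, matches on both strands overlap, and the Gins3 letters lie on the strand opposite to the gene.

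Several libraries stood apart from their labels or groups. Among the MLL-AF9 knockout samples without leukaemia, KSL replicate 1 and CMP replicate 1, from the same mouse, had Meis1 at 6.04 and 4.84 against 8.76 to 9.79 in the other 3, and Mecom at 4.29 and 3.65 against 7.95 to 8.60; both are genes of stem cells and MLL fusion leukaemia. KSL and CMP replicates 2, from the other shared mouse, had the T cell gene Cd3g at 6.85 and 5.85, against at most 4.74 elsewhere. Results that rest on these mice, called here the low-Meis1 and the Cd3g mouse, are given with and without each. The B cell factor gene Ebf1 was 5.46 in primary control L-GMP replicate 1 and 3.07 to 3.74 in all other samples. The Fc receptor gene Fcgr3, by whose product GMPs are told from CMPs, was 8.87 and 6.72 in KSL and CMP replicates 1, from the low-Meis1 mouse. It was 5.63 in the other KSL sample and 5.04 and 4.67 in the other CMP samples. Knockout secondary L-GMP replicate 2 had the neutrophil granule genes Camp and Ngp at 7.96 and 7.54, against 5.50 to 5.71 and 4.75 to 5.17 in the other 2 knockout L-GMP samples. Cebpa was 4.33 to 5.55 in all 12 knockout samples and 7.19 to 7.96 in all 11 control samples. Array weights were 0.26 to 0.542 in the MLL-AF9 KSLs and CMPs and 0.307 in both primary control L-GMPs. They were 0.847 in secondary control L-GMPs, 1.31 and 1.26 in primary and secondary knockout L-GMPs and 1.54 to 2.92 in non-transplanted marrow. A lower weight marks wider scatter about the group mean, which may come from the array or from the mouse. Both samples in a group of 2 get the same weight, and a group of 1 has no scatter. Non-transplanted and transplanted marrow were separate experiments, and a difference between them cannot be told apart from one between array runs. The same holds for culture, transduction and transplantation into irradiated mice on one side, and the 5 days since poly I:C on the other.

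Most of the 50 genes rose and fell together over the 23 samples, and 17 followed the common pattern less closely. As a score, the median over the genes of the level minus the gene's own mean was 0.34 to 0.42 in control CMPs, 0.37 to 0.45 in control GMPs and -0.07 to 0.25 in knockout CMPs. In MLL-AF9 samples it was below 0 in every library, though only just in MLL-AF9 CMP replicate 2. It was -0.76 and -0.18 in knockout KSLs and -0.32, -0.0008 and -0.15 in knockout CMPs (mean -0.16). In control L-GMPs it was -0.27 and -0.15 (primary) and -0.40 and -0.21 (secondary). The primary knockout L-GMP sample was at -0.02 and the secondary ones at -0.29 and -0.61. The groups of non-transplanted control progenitors lay above all others without overlap, and knockout CMPs lay between them and most transplanted samples. Of the 50 genes, 26 had their highest group mean in control GMPs and 17 in control CMPs. The lowest mean fell in MLL-AF9 KSLs for 18 and in secondary knockout L-GMPs for 17. No such counts were made over all genes, nor for the correlations given below, so what is particular to the set was not tested. The heat map shows every value.

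**Figure D1:**
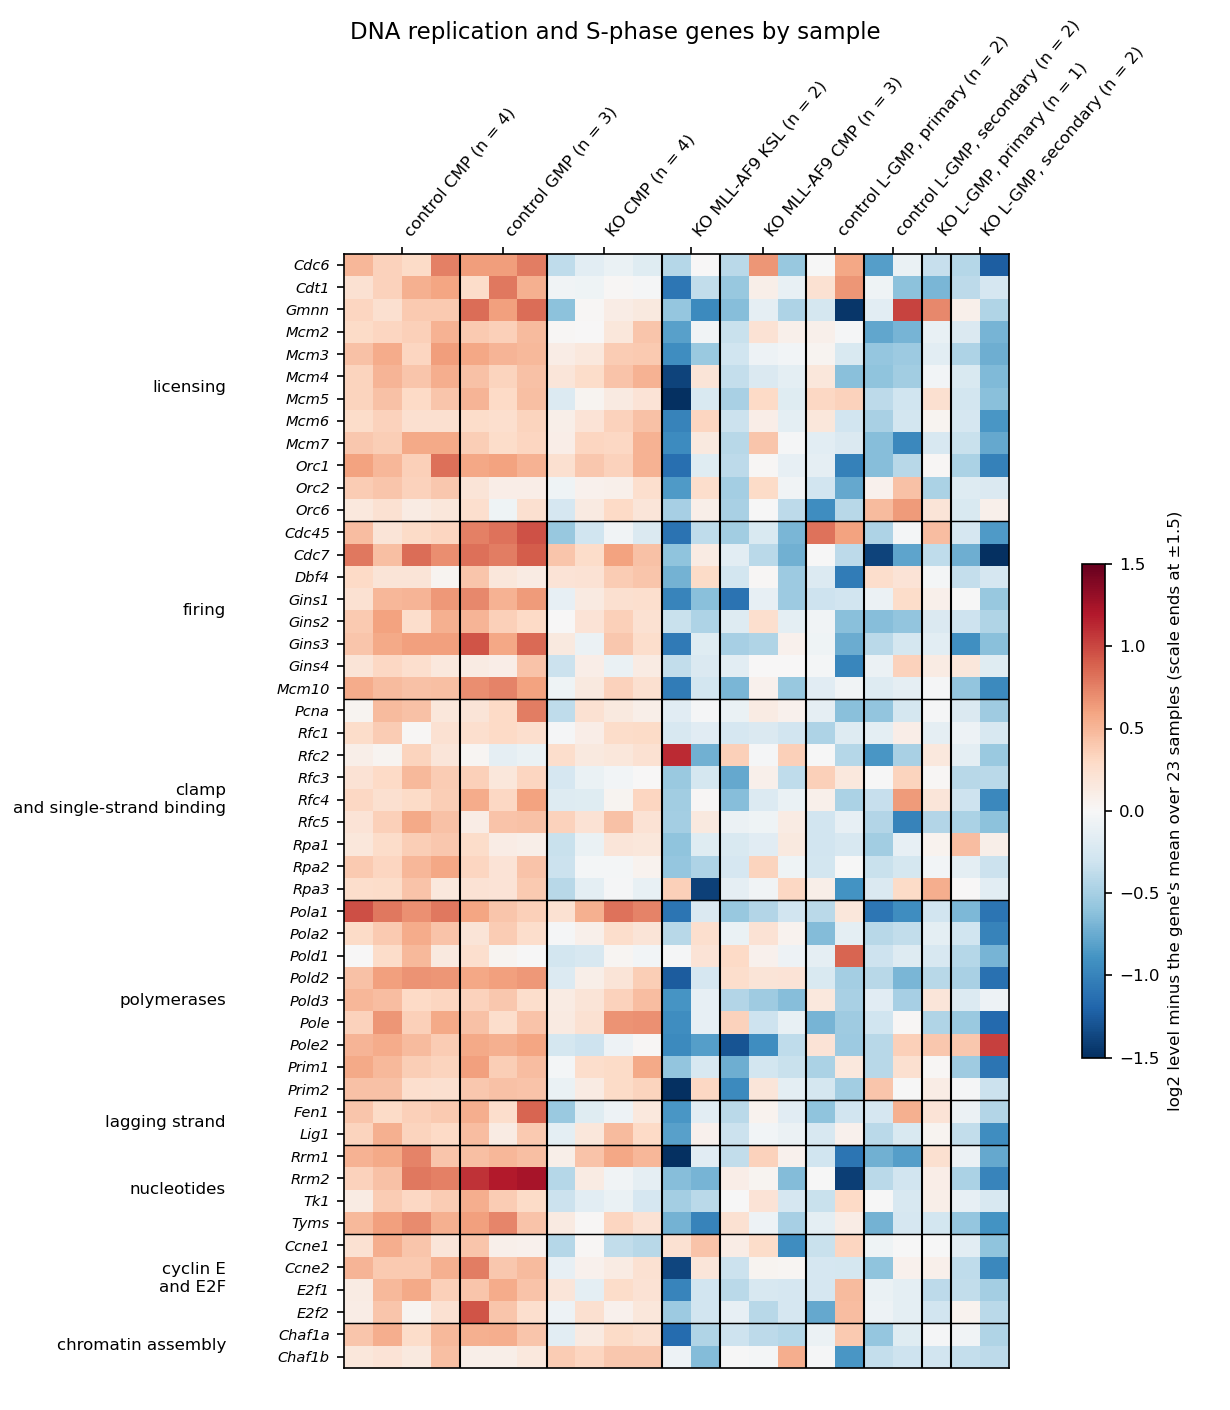
Log2 level of each of the 50 genes (rows, by role) in each of the 23 samples (columns, by group) minus that gene's mean over all samples, with red above and blue below. Control CMPs and GMPs are red in nearly every row, knockout CMPs paler, and MLL-AF9 KSL replicate 1 and secondary knockout L-GMP replicate 2 are the bluest columns (scores -0.76 and -0.61).

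Within the set, the link to the common pattern was unequal. The correlation of a gene with the median of the other 49 over the 23 samples, which share groups and arrays, was at least 0.7 for 33 genes, with a median of 0.79. It was highest for the helicase subunit Mcm3 (r = 0.95), the origin factor Orc1 (0.94) and the initiator Mcm10 (0.94). At the other end were the clamp loader subunit Rfc2 (0.07), the cyclin gene Ccne1 (0.29), the single-strand binding subunit Rpa3 (0.30), the polymerase delta catalytic subunit Pold1 (0.33), Orc6 (0.40) and the polymerase epsilon subunit Pole2 (0.45). The 7 genes with their highest group mean outside control CMPs and GMPs were Orc6, Rfc2, Rpa3, Pold1, Pole2, Dbf4 and Chaf1b. Group means of a gene spanned a median of 1.14 log2 units from the lowest group to the highest.

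The 23 measured mitotic genes, which act after replication, were likewise highest in non-transplanted control progenitors. Their score was 0.31 to 0.57 in control CMPs, 0.53 to 0.66 in GMPs, -0.06 to 0.30 in knockout CMPs and -0.93 to -0.18 in all other samples but the primary knockout L-GMP sample. There the mitotic score was 0.45, level with non-transplanted control progenitors, while the replication score was -0.02. Mean scores of MLL-AF9 CMPs and primary control L-GMPs also changed order, at -0.16 and -0.21 for replication and -0.31 and -0.19 for mitotic genes. The gap of 0.47 between the scores of the primary knockout L-GMP sample was the widest of the 23 samples, and no replicate of that group exists.

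**Figure D2:**
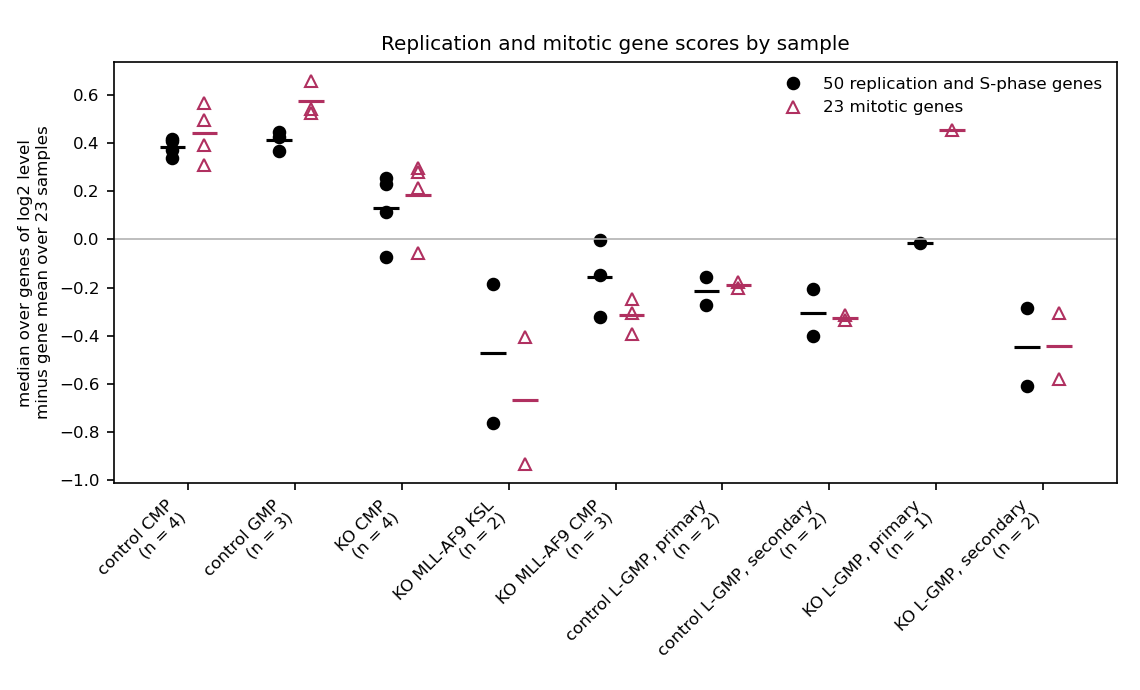
Median over the 50 replication and S-phase genes (filled circles) and over 23 mitotic genes (open triangles) of the log2 level minus the gene mean, per sample, with bars at group means. Non-transplanted control CMPs and GMPs sit highest, and the single primary knockout L-GMP sample is at -0.02 for replication and 0.45 for mitotic genes.

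Among licensing genes, Mcm3 followed the score closely. Its log2 level was 9.06, 9.17, 8.94 and 9.25 in control CMPs, 9.20, 9.12 and 9.10 in GMPs and 8.73, 8.77, 9.00 and 9.00 in knockout CMPs. It was 8.65 and 8.39 in primary and 8.04 and 8.08 in secondary control L-GMPs, 8.46 in the primary and 8.15 and 7.88 in the secondary knockout L-GMPs, 7.69 and 8.07 in MLL-AF9 KSLs and 8.32, 8.55 and 8.57 in MLL-AF9 CMPs. No transplanted sample reached the lowest non-transplanted one. Orc6, a subunit of the origin recognition complex, did otherwise: it was 9.15 and 9.32 in secondary control L-GMPs, above all other samples (7.75 to 8.98), and 7.75 and 8.27 in the primary ones. Gmnn encodes geminin, which blocks Cdt1 after S phase has begun, and it ranged from 5.18 to 7.66 among the 4 control L-GMPs alone.

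Of the genes that fire origins, Cdc7 encodes the kinase that phosphorylates the Mcm helicase. Its level was 6.84, 6.50, 6.88 and 6.75 in control CMPs, 6.87, 6.81 and 6.95 in GMPs and 6.46, 6.32, 6.66 and 6.49 in knockout CMPs, and 4.50 to 6.18 in all transplanted samples. Dbf4, its activating partner, was 7.70 to 8.07 in non-transplanted marrow and 6.61 to 7.94 in transplanted samples, which overlap. Cdc45, which joins the helicase as it is activated, was 8.84, 8.90 and 9.04 in GMPs and 8.90 and 8.69 in primary control L-GMPs, and 7.62 and 8.06 in secondary ones.

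The clamp gene Pcna was the brightest of the set by mean (11.0), though levels of different probe sets cannot be ranked as amounts. It was 11.1 to 11.8 in control CMPs and GMPs, 10.7 to 11.3 in knockout CMPs and 10.4 to 11.2 in transplanted samples. A further Pcna probe set with a lower mean correlated with this one at r = 0.76. Rfc2 was 7.30 to 8.52 in 22 samples and 9.28 in MLL-AF9 KSL replicate 1, the sample with the lowest score. Rpa2, a subunit of the single-strand binding protein, was 8.08, 8.01, 8.17 and 8.26 in control CMPs and 7.36, 7.65, 7.65 and 7.73 in knockout CMPs, with no overlap.

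Of the polymerase genes, Pola1, the catalytic subunit that extends primers, was 8.70, 8.52, 8.42 and 8.53 in control CMPs and 8.33, 8.15 and 8.09 in GMPs. Its knockout CMP levels were 7.96, 8.26, 8.55 and 8.47, and transplanted samples ran from 6.63 to 7.90. Pole2 was 7.18 to 7.40 in control CMPs and GMPs and 6.50, 6.54, 6.73 and 6.83 in knockout CMPs. It was 5.51 to 6.43 in MLL-AF9 KSLs and CMPs, 6.26 to 7.17 in control L-GMPs, and 7.21, 7.22 and 7.83 in knockout L-GMPs, where its highest value lay in the sample with the lowest score of the 3.

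By the median of its genes relative to their own means, nucleotide supply had the widest swing of the roles. It ran from -0.76 in MLL-AF9 KSLs to 0.57 in control CMPs. Among single genes, group means of Cdc7 spanned 1.97 log2 units and those of Rrm2 1.90. Rrm2 encodes the S-phase subunit of ribonucleotide reductase and was 9.01, 9.12 and 9.17 in GMPs, 8.28, 8.37, 8.73 and 8.69 in control CMPs and 7.50, 8.05, 7.88 and 7.80 in knockout CMPs. In transplanted samples it lay between 6.52 and 8.03. Tk1, thymidine kinase, was 8.07, 8.34, 8.26 and 8.33 in control CMPs and 7.62, 7.79, 7.85 and 7.69 in knockout CMPs. The other ribonucleotide reductase subunit gene, Rrm1, was 9.51 to 9.83 in control CMPs and GMPs and 9.18 to 9.67 in knockout CMPs, which overlap.

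The flap endonuclease gene Fen1 and the ligase gene Lig1, which join lagging strand fragments, were 7.21 to 7.81 and 8.26 to 8.67 in control CMPs and GMPs, and 6.39 to 7.10 and 7.99 to 8.61 in knockout CMPs. E2f1, a transcription factor that drives entry into S phase, was 6.81 to 7.26 in control CMPs and GMPs and 5.70 to 7.16 in transplanted samples. Chaf1a and Chaf1b encode the larger subunits of chromatin assembly factor 1; Chaf1b was 7.14 to 7.23 in knockout and 6.97 to 7.28 in control CMPs.

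**Figure D3:**
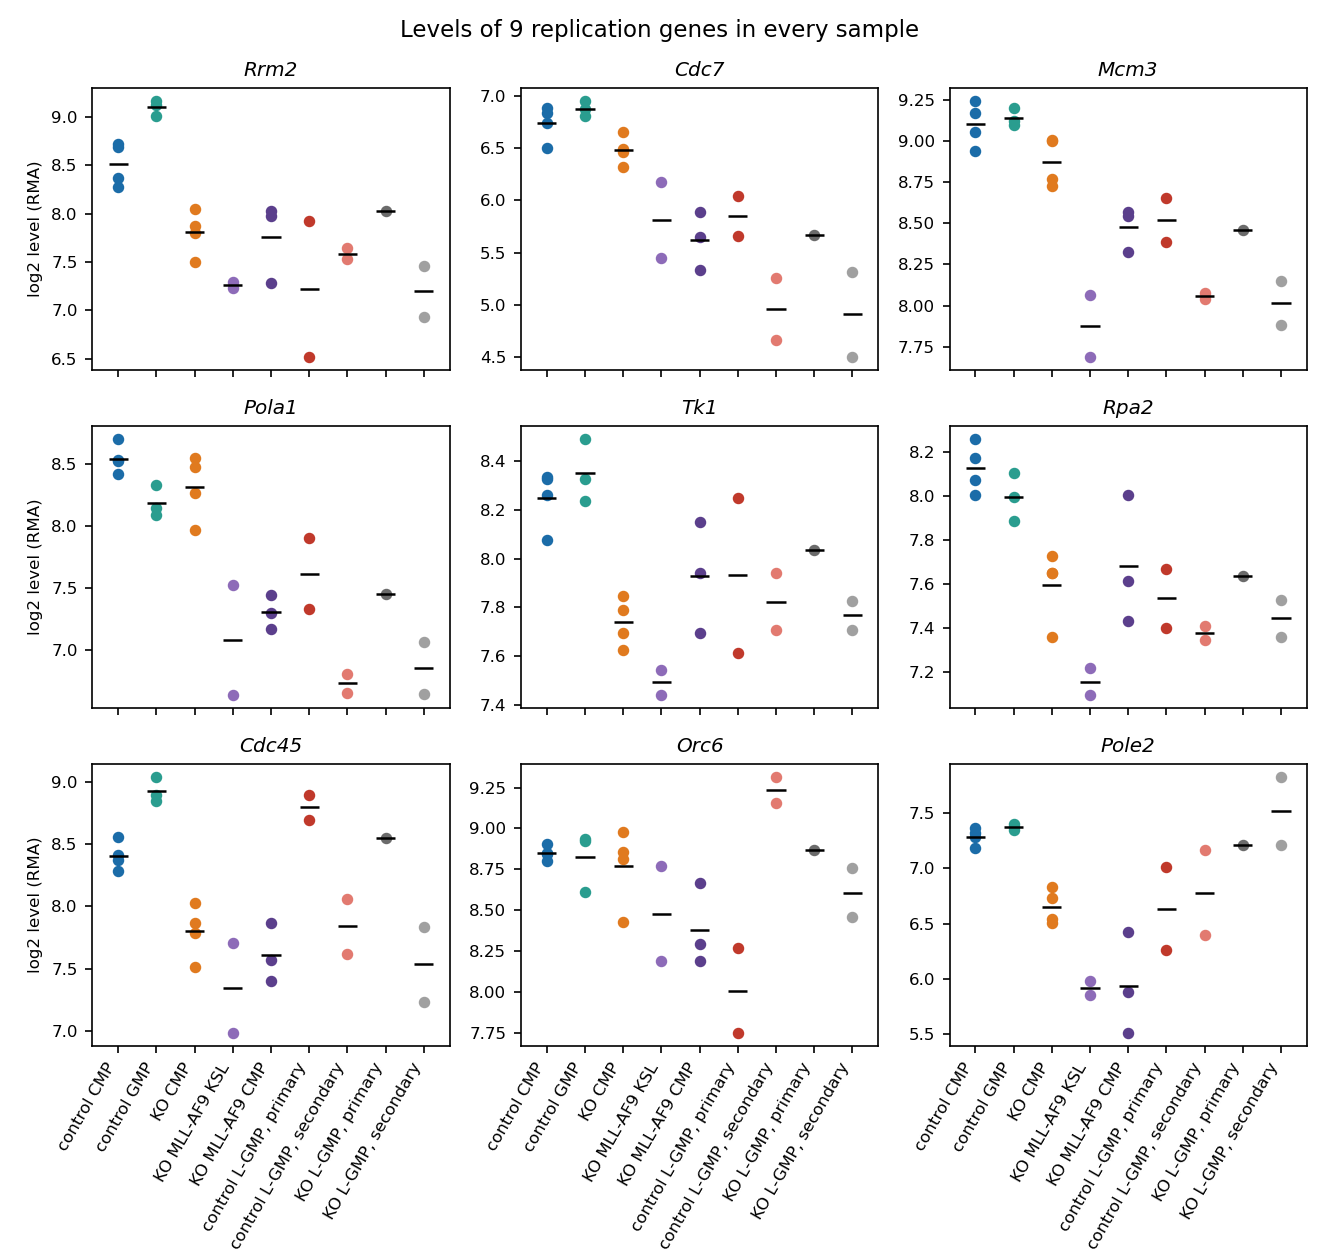
Log2 level of 9 genes in every sample by group, with bars at group means; each panel has its own axis. Rrm2, Cdc7, Mcm3 and Pola1 are highest in non-transplanted marrow, Tk1 and Rpa2 are lower in knockout than in control CMPs without overlap, and Orc6 and Pole2 are highest in secondary control and secondary knockout L-GMPs.

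Leukaemic cells of control genotype had lower levels of the set than the GMPs of non-transplanted marrow. Leukaemia cannot be told apart here from culture, transduction and transplantation, from the time since poly I:C, or from array runs. In 4 control L-GMP samples against 3 GMP samples, the estimate was below 0 for all 50 genes, and 33 fell (limma, Benjamini-Hochberg adjusted over all 19937 genes, threshold 0.05). Among all genes 14.7% were called lower in this comparison and 52.5% had an estimate below 0. The median change of the 50 was -0.64 on the log2 scale against -0.02 over all genes. In 31 of the 50 every L-GMP sample lay below every GMP sample, as in 17.7% of all genes.

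By role, 6 of 12 licensing genes fell, with Orc1 among the 8 largest changes: it was 6.06, 5.18, 5.56 and 5.78 in L-GMPs and 6.78, 6.80 and 6.72 in GMPs (2.17-fold lower, log2 change -1.12 ± 0.22 SE, adjusted p = 0.0027). Gmnn changed by -0.98 ± 0.29 (adjusted p = 0.0223), but its L-GMP level of 7.66 in secondary replicate 2 exceeded all 3 GMPs (7.25 to 7.48). Of the 8 firing genes 6 fell, led by Cdc7 (6.05, 5.66, 4.66 and 5.26 in L-GMPs, 2.78-fold lower, -1.47 ± 0.21, adjusted p = 0.000369) and the GINS subunit Gins3 (6.45, 5.77, 6.10 and 6.25 against 7.46, 7.10 and 7.36, -1.16 ± 0.21, adjusted p = 0.00134). Neither gene's groups overlapped.

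All 4 nucleotide genes fell. Rrm2 had the largest change of the set, from 9.10 ± 0.08 (SD, n = 3) in GMPs to 7.92, 6.52, 7.53 and 7.64 in L-GMPs (3.24-fold lower, -1.70 ± 0.26, adjusted p = 0.000523), and Rrm1 changed by -1.20 ± 0.27 (adjusted p = 0.00581). Of 9 polymerase genes 7 fell. Pold2, an accessory subunit of polymerase delta, was 7.71, 7.42, 7.52 and 7.25 in L-GMPs against 8.51, 8.55 and 8.58 (-1.07 ± 0.20, adjusted p = 0.00169), and Pola1 changed by -1.02 ± 0.19 (adjusted p = 0.00218).

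Of the remaining groups, 5 of 9 clamp and single-strand binding genes, 2 of 4 cyclin E and E2F genes, both chromatin assembly genes and Fen1 of the lagging strand pair fell. The calls for Rrm2, Cdc7, Rrm1, Gins3, Orc1, Pold2 and Pola1 held with any of the 7 samples left out, and the call for Gmnn ended with 4 of them, with an adjusted p of up to 0.0959. The count of genes that fell was 20 without GMP replicate 1 and 21 without GMP replicate 2 (17.7% and 13.9% of all genes called in either direction). Of 38 other measured replication genes, 25 fell and 1 rose, with Clspn, a fork checkpoint mediator (-1.39 ± 0.25), and Uhrf1, which copies DNA methylation at the fork (-1.12 ± 0.17), among them. Mitotic genes fell in 19 of 23.

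Both progenitor markers, Kit and Cd34, were lower in control L-GMPs, with a mean level of the pair of 7.52 to 9.21 against 9.44 to 9.54 in GMPs. None of the 5 GMP markers was called (10.5 to 11.8 against 11.4 to 11.7), nor any of 5 mature neutrophil markers (4.73 to 5.64 against 4.77 to 5.14), and 2 of 5 monocyte markers (8.11 to 8.89 against 9.10 to 10.0) and 1 of 3 megakaryocyte markers (5.04 to 5.64 against 5.79 to 6.34) were lower. Of 4 B cell markers 2 were higher (5.24 to 5.98 against 5.02 to 5.16), as was 1 of 3 T cell markers (4.31 to 4.69 against 4.18 to 4.43). The 5 stem cell markers were at 5.20 to 5.74 against 4.95 to 5.11, with a median change of 0.16 and no call. The part of these cell markers in the result was not tested.

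Knockout L-GMPs were set against the same 3 GMP samples, with the same limits as for control L-GMPs. They gave 23 genes that fell and none that rose, where 6.49% of all genes were called lower. The median was -0.64 (all genes -0.01), and in 43 of 50 genes the 3 knockout samples lay below the 3 GMPs, against 20.8% of all genes. Cdc7 was 5.67, 5.32 and 4.50 in knockout L-GMPs (3.02-fold lower, -1.59 ± 0.24, adjusted p = 0.000528). Rrm2 was 8.03, 7.46 and 6.94 (-1.48 ± 0.29, adjusted p = 0.00386) and the licensing gene Cdc6 was 6.49, 6.40 and 5.59 against 7.46, 7.46 and 7.60 (-1.27 ± 0.30, adjusted p = 0.0129). The primary sample was the highest of the 3 for each of these genes and still below every GMP.

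Gins3 changed by -1.26 ± 0.23, Pold2 by -1.22 ± 0.22, the thymidylate synthase gene Tyms by -1.10 ± 0.17, Mcm10 by -1.07 ± 0.20 and Cdt1 by -1.04 ± 0.21 (adjusted p = 0.000794 to 0.00544). These 8 calls held with any of the 6 samples left out. The count was 15 without secondary knockout replicate 2, the sample with granule genes and the lowest score of the 3 (7.22% of all genes called in either direction). With array weights it was 40 (14.8% of all genes called lower). In the unweighted fit 18 of 38 other replication genes and 9 of 23 mitotic genes fell. None of the 5 GMP markers was called, and 3 of 5 stem cell markers were higher, with a mean level of 6.72 to 7.12 against 4.95 to 5.11 in GMPs. Among the other lists, 2 of 5 monocyte markers were lower and 1 of 4 B cell markers was higher, and no more were called. The part of these markers was not tested. Since the 2 sets of L-GMPs share their GMP reference, their values are given side by side only, and the spread among the knockout samples is that of a single leukaemia.

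**Figure D4:**
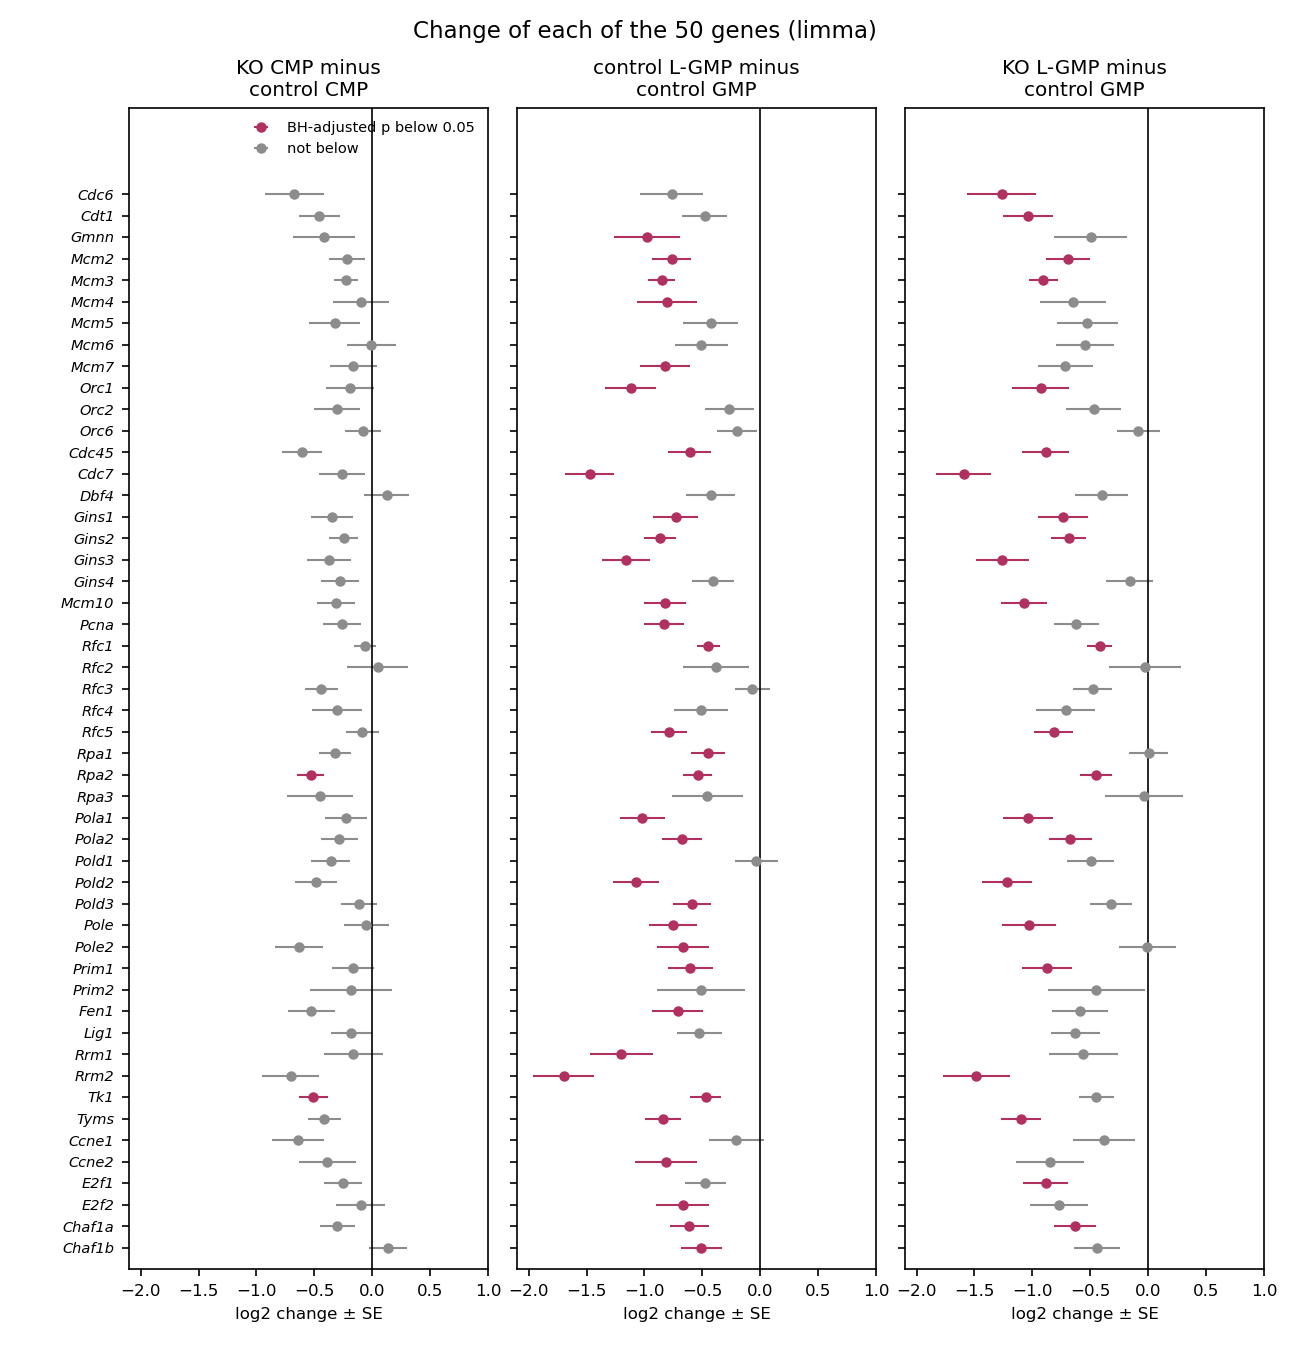
Log2 change ± SE (limma) of each of the 50 genes in knockout against control CMPs (left), control L-GMPs against GMPs (middle) and knockout L-GMPs against GMPs (right); coloured points have a Benjamini-Hochberg adjusted p below 0.05. The middle and right panels use the same GMP samples, with 33 and 23 coloured points, all left of 0, and the left panel has 2.

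Loss of Cebpa in CMPs went with slightly lower levels of most of the set, few of which passed the test gene by gene. In 4 knockout against 4 control CMP samples, 47 of 50 estimates were below 0 (49.8% over all genes), with a median of -0.28 against 0 over all genes, and 2 genes fell where 2.64% of all genes were called lower. In 21 of the 50 every knockout sample lay below every control sample, which was so in 11.3% of all genes. The 2 genes that fell were Rpa2 (1.44-fold, -0.53 ± 0.12, adjusted p = 0.0134) and Tk1 (1.42-fold, -0.51 ± 0.13, adjusted p = 0.0268), whose values are above. A further Tk1 probe set changed by -0.78.

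The role with the lowest median was nucleotide supply (-0.46), then the lagging strand pair (-0.35) and cyclin E and E2F genes (-0.32), and licensing genes stood at -0.22. Changes of single genes ran from -0.71 (Rrm2) to 0.13 (Chaf1b). The call for Rpa2 ended with 2 of the 8 samples left out and that for Tk1 with 6, with adjusted p up to 0.0569 and 0.0988, both without knockout replicate 1, which also had the lowest score of the 4 (-0.07). The count was 1 without control replicate 2 or 3 or knockout replicate 2 or 4, and 0 without control replicate 4 or knockout replicate 1, with 2.66% to 4.1% of all genes called in either direction over the 8 omissions. It also moved with the estimate of spread: 17 genes fell with array weights (10% of all genes) and 17 with the 2 groups fitted alone (8.73%).

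Of 38 other replication genes 2 fell, Dna2, a nuclease of flap processing (-0.71 ± 0.16), and the helicase binding protein Mcmbp (-0.46 ± 0.11), and of 23 mitotic genes 2, Aurka and Aurkb. Cell identity markers moved far more: 5 of 5 monocyte markers and 3 of 5 GMP markers were lower, with mean levels of 4.85 to 5.87 against 8.81 to 9.01 and of 7.38 to 8.70 against 10.2 to 10.9. None of the 5 erythroid markers was called (6.45 to 7.47 against 7.14 to 8.18). Whether the makeup of the gate bears on the replication genes was not tested.

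MLL-AF9 knockout CMPs from transplanted mice were lower again in most of the set than knockout CMPs from non-transplanted marrow. The scores of these groups overlapped: MLL-AF9 CMP replicate 2, at -0.0008, lay above knockout CMP replicate 1, at -0.07. The limits given above for transplanted against non-transplanted marrow apply. In 3 against 4 samples 6 genes fell (all genes called lower 3.36%), 40 of 50 estimates were below 0 (46.3% of all genes), and the median was -0.31 against 0.01. In 15 of the 50 the groups lay apart with the MLL-AF9 samples lower, as in 9.4% of all genes. Of the 6 genes, 3 are polymerase or primase subunits. Pola1 was 7.16, 7.29 and 7.44 against 7.96 to 8.55 (-1.01 ± 0.19, adjusted p = 0.00823), Pold3, a subunit of polymerase delta, 7.71, 7.61 and 7.51 against 8.26 to 8.61 (-0.81 ± 0.16, adjusted p = 0.0112), and the primase gene Prim1 7.63, 8.09 and 8.03 against 8.33 to 8.93 (-0.72 ± 0.20, adjusted p = 0.046).

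The others were Cdc7 (-0.86 ± 0.21, adjusted p = 0.0309), the GINS gene Gins1 (-0.72 ± 0.20, adjusted p = 0.0456) and the clamp loader gene Rfc1 (-0.41 ± 0.10, adjusted p = 0.0246). None of the 6 overlapped between groups. Pola1 and Pold3 held with any of the 7 samples left out, while the other 4 calls ended with 3 to 6 of them. The count was 2 without knockout CMP replicate 3 or 4 and 3 without replicate 2 of those or MLL-AF9 CMP replicate 1, with 2.46% to 3.19% of all genes called in either direction in these 4 cases. Without the low-Meis1 mouse, Pola1, Pold3, Cdc7 and Rfc1 fell (3.68% of all genes) and the median was -0.18. Without the Cd3g mouse 12 fell, the 6 named among them (8.11% of all genes called in either direction), and the median was -0.37. In this comparison 9 of 38 other replication genes and 8 of 23 mitotic genes fell, among them Ticrr, an activator of origin firing (-1.09 ± 0.13), and 4 of 5 GMP markers were lower (5.55 to 6.14 against 7.38 to 8.70), a shift whose part was not tested.

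Control GMPs and CMPs, the normal steps of the myeloid path, did not differ in any of the 50 genes by limma, where 1.05% of all genes were called. The estimates were split 28 above and 22 below 0, with a median of 0.03. An unadjusted p below 0.05 was found in 1569 of all 19937 genes and in 2 of the 50. These were Cdc45 (0.52 ± 0.18, adjusted p = 0.339) and Rrm2 (0.58 ± 0.26, adjusted p = 0.58), both higher in GMPs without overlap. With array weights 2 genes were called higher (3.47% of all genes). The CMP samples are those that served the knockout comparison.

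Between knockout and control L-GMPs, too, none of the 50 was called by limma (3.27% of all genes). An unadjusted p below 0.05 was found in 7 of the 50 and in 3824 of all 19937 genes. The median was -0.01, with 24 estimates above and 26 below 0. The smallest p-values belonged to the single-strand binding gene Rpa1 and to Pole2. Rpa1 was 7.62, 8.02 and 7.65 in knockout and 7.28, 7.32, 7.05 and 7.45 in control L-GMPs (0.45 ± 0.16, adjusted p = 0.126), and Pole2 was 7.21, 7.22 and 7.83 against 7.01, 6.26, 6.39 and 7.17 (0.66 ± 0.23, adjusted p = 0.137). Both were higher in all 3 knockout samples than in any control sample. The knockout samples trace to 1 leukaemia, in a recipient given IL-3 and GM-CSF vectors, which the labels name for no control sample. Genotype cannot be told apart from that leukaemia or from the vectors. Without primary control replicate 1, 2 genes were higher and 2 lower (12.3% of all genes called), and without the primary knockout sample 2 were lower (4.64%).

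In L-GMPs, a knockout effect cannot be told apart from the cytokine vectors or from the single knockout leukaemia. With that limit, the knockout effect was compared between leukaemic and normal cells as a difference of differences. Pole2 was the gene of the set for which they differed (1.30 ± 0.31, adjusted p = 0.0335, 2.02% of all genes called in that direction): it was 0.64 lower in knockout than control CMPs and 0.66 higher in knockout than control L-GMPs, neither of which was called alone. The call ended with 10 of the 15 samples left out, with an adjusted p of up to 0.0801. Over the 50 genes the median difference was 0.26, against -0.00 over all genes, and 42 estimates were above 0; without the primary knockout L-GMP sample it was 0.054. Counts were 4 without primary control L-GMP replicate 1, 2 without secondary control replicate 2 or the primary knockout sample, and 0 without secondary control L-GMP replicate 1, any control CMP sample or any of knockout CMP replicates 1 to 3. In the first case 8.04% of all genes were called in either direction, and in the others 1.92% to 3.61%.

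Against the non-leukaemic MLL-AF9 knockout KSLs and CMPs, control L-GMPs gave 7 genes that rose (8.51% of all genes called higher) and a median of 0.06. Cdc45 rose most (0.84 ± 0.16, adjusted p = 0.00178), at 7.62 to 8.90 in L-GMPs against 6.98 to 7.86, then Pole2 (0.78 ± 0.20, adjusted p = 0.0115), Gins1 (0.60 ± 0.17), Rfc3 (0.60 ± 0.13), Cdt1 (0.51 ± 0.17), Chaf1a (0.47 ± 0.15) and E2f1 (0.46 ± 0.16), the last 5 with adjusted p of 0.00512 to 0.0487. All 7 overlapped between the groups. The share of the set that rose was near that of all genes. All 5 GMP markers were higher in L-GMPs (10.5 to 11.8 against 5.55 to 6.86). So were 4 of 5 monocyte, 3 of 5 mature neutrophil and 1 of 4 B cell markers. Lower were 4 of 5 erythroid, 2 of 3 megakaryocyte and 1 of 3 T cell markers. Of Kit and Cd34, 1 was higher and 1 lower, and no stem cell marker was called. The part of these markers was not tested.

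This result moved with single libraries. Without both samples of the low-Meis1 mouse, 3 of the 50 were higher (Cdc45, Pole2 and Rfc3; 10.9% of all genes) and 5 lower (14.7%), and the median was -0.08. Leaving out 1 sample gave 3 to 12 calls: 12 without primary control replicate 1 or KSL replicate 2, 4 without primary replicate 2 or CMP replicate 3, and 3 without secondary replicate 2, with 14.2% to 24.7% of all genes called in either direction. Without the Cd3g mouse 12 were higher, the 7 named among them, and 1 lower (23.6% of all genes called), with a median of 0.24. The calls for Cdc45 and Rfc3 held with any of the 9 samples or either mouse left out. Over the single omissions their changes were 0.66 to 1.02 and 0.50 to 0.71. They did not both hold in other fits: with array weights 1 of the 50 was called (6.27% of all genes). With the compared groups alone or the replicate block none of the 50 was called, against 493 and 128 of all 19937 genes.

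Knockout L-GMPs, against the same non-leukaemic samples, gave 2 genes that rose (7.27% of all genes called higher) with a median of 0.05. Of cell markers, 5 of 5 GMP, 4 of 5 monocyte and 1 of 4 B cell markers were higher. Lower were 4 of 5 erythroid, 2 of 3 megakaryocyte and 1 of 3 T cell markers. Both the stem cell list and the pair Kit and Cd34 had 1 higher and 1 lower. No mature neutrophil marker was called, and the part of these markers was not tested. Pole2 was 7.21 to 7.83 against 5.51 to 6.43 (2.71-fold higher, 1.44 ± 0.22, adjusted p = 0.000343), did not overlap, and held with any of the 8 samples left out and without the low-Meis1 mouse (1.30 ± 0.24, adjusted p = 0.00162). Pold3 (0.54 ± 0.16, adjusted p = 0.0405) lost its call with 6 of the 8. Without that mouse 2 genes were higher (8.42% of all genes) and 5 lower (9.48%), with a median of -0.13. The count was 10 without KSL replicate 2, 5 without KSL replicate 1 and 4 without the primary knockout sample (16.4%, 16.1% and 14% of all genes called). Without the Cd3g mouse 11 were higher and 1 lower (18.1%), with a median of 0.21.

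In the non-leukaemic mice, CMPs stood above KSLs in 3 genes (2.02% of all genes called higher), with a median of 0.29. Pold2 was 8.19, 8.13 and 8.13 in CMPs against 6.68 and 7.69 (0.97 ± 0.24, adjusted p = 0.0361), Tyms 8.40, 8.10 and 7.67 against 7.46 and 7.17 (0.74 ± 0.19, adjusted p = 0.0431) and Mcm3 changed by 0.60 ± 0.14 (adjusted p = 0.0244). The difference moved with 1 KSL library. The median was -0.033 without KSL replicate 1, 0.51 with 16 calls without KSL replicate 2 (14.3% of all genes called), and 0.044 without both samples of the low-Meis1 mouse, where none of the 3 was called. Without the Cd3g mouse it was 0.42, with 14 calls (21.5% of all genes), Pold2 and Mcm3 among them. Counts were 2 without KSL replicate 1 (3.15%) and 1 without CMP replicate 3 (1.78%). With the shared mice as a replicate block, 0 of the 50 and 0 of all genes were called.

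Secondary and primary control L-GMPs, 2 samples each, differed in 5 of the 50, 2 higher (4.04% of all genes) and 3 lower (3.67%) in secondary recipients, with a median of -0.06. Orc6 rose 2.34-fold (1.23 ± 0.22, adjusted p = 0.00462), and Gmnn was 6.48 and 7.66 against 6.37 and 5.18 (1.29 ± 0.38, adjusted p = 0.0478). Cdc45 (-0.95 ± 0.24, adjusted p = 0.0249), Pola1 (-0.89 ± 0.26, adjusted p = 0.0451) and the helicase gene Mcm2 (8.37 and 8.27 in primary, 7.52 and 7.59 in secondary, -0.77 ± 0.22, adjusted p = 0.0456) fell. Each of the 5 calls was lost with 1 or more of the 4 samples left out, the one for Orc6 narrowly (adjusted p = 0.0508), and none was made with array weights. The count was 8 without primary replicate 1, 1 without primary replicate 2, 3 without secondary replicate 1 and 0 without secondary replicate 2, with 15.4%, 3.45%, 5.25% and 1.84% of all genes called.

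Changes are set beside the promoter letters as a description. Of the 15 genes with an E2F match 8 fell in control L-GMPs against GMPs, with a median of -0.67, and of the 26 genes without one 19 fell, with a median of -0.61. In knockout against control CMPs the medians were -0.23 and -0.30. Of the genes whose windows are printed above, Gins3 fell in both L-GMP comparisons with GMPs, whereas the changes of Mcm5, Mcm6 and Rfc3 in control L-GMPs were -0.43, -0.51 and -0.07 and did not pass.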

How the data were processed

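RNA of each sample was amplified with a small-input kit and hybridised, per the labels' protocols. The authors deposited log2 values for 34760 probe sets. RMA is the tool that the submitters' processing notes name, with a version not given in the sources used here. It corrects background, equalises arrays and summarises probes, so levels compare within a probe set only, and it compresses changes of dim genes. The lowest deposited value is 3. Array number limits precision.

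From these values, 21640 probe sets with 1 symbol gave 19937 genes. Group means of all 23 samples were fitted with limma 3.58.1 (R 4.3.3; eBayes with trend), and p-values were adjusted by Benjamini-Hochberg over all genes. Groups on one side of a contrast weighed equally, so the primary knockout L-GMP sample weighs as much as both secondary ones. The code was tested on simulated data. The members and lists (38 of 40 other replication genes, 23 of 24 mitotic genes and the markers measured) were chosen with earlier results of these data known. As changes, the text names called members: all up to 8, otherwise the 8 largest; where none passed, the 2 with the smallest p. Some listed genes are not reported here. Of other replication genes up to 4 called ones are named. Further values are levels, or were chosen after they were seen. The printed promoters were those with matches before the start site and outside the gene.

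Alternatives were array weights, compared groups alone, a replicate block, source animal as random block, a filter (2 samples above log2 5), mean of probe sets, median centring and each sample left out; leaving out either of 2 mice and equal weight per knockout L-GMP sample were added after the data were seen. KSL and CMP replicates 1 and 2 of the MLL-AF9 mice are pairs of 1 mouse by their labels, and their deviations from group means correlated (0.45 and 0.26).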

Additional observations from a re-analysis of the deposited data

Results flagged for a closer look

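Of 100 groups of 4 samples examined, 2 for each of the 50 genes, 3 held a sample far from the others, where about 1 in 20 is usual by chance. Gmnn was 6.03 in knockout CMP replicate 1, against 6.66 to 6.78 in the other 3. Lig1 was 8.67 in control CMP replicate 2, against 8.44 to 8.47. Ccne1 was 6.96 in knockout CMP replicate 2, against 6.51 to 6.56. The knockout effect on Pole2 differed between L-GMPs and CMPs by 1.30 ± 0.31 (limma, adjusted p = 0.0335). In L-GMPs, genotype cannot be told apart from the cytokine vectors or from the single knockout leukaemia.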

How the results depend on the processing

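No change of a named gene reversed under any alternative: 791 recomputed values kept their side of the threshold, 289 lost it and 4 gained it. Counts of the 50 genes called stayed within 1.5 times in 96 cases and moved further in 76, and the median change moved beyond the spread in 8 and not in 164. With array weights the count was 17 for knockout against control CMPs, 2 for GMPs against CMPs, 1 for control and 1 for knockout L-GMPs against non-leukaemic progenitors, 0 for MLL-AF9 CMPs against KSLs, 2 for MLL-AF9 against non-transplanted knockout CMPs, 40 for knockout L-GMPs against GMPs, 0 for secondary against primary L-GMPs and 2 for the difference of knockout effects. With the compared groups alone these were 17, 3, 0, 0, 0 and 3, then 0 for secondary against primary L-GMPs and 3 for the difference of effects. Among all 19937 genes, the calls with array weights were, in the same order, 3762, 1257, 1250, 2086, 3, 335, 5119, 151 and 1280. With the compared groups alone they were 3220, 643, 493, 347, 0 and 443, then 0 and 1582. With the replicate block the counts were 13 lower for knockout CMPs (5.98% of all genes called lower) and 0 for both L-GMP sets against GMPs and against non-leukaemic progenitors, for both MLL-AF9 CMP comparisons and for secondary against primary L-GMPs; apart from the MLL-AF9 pairs the samples share only a number, and 1 to 3 residual degrees of freedom remain. The block changed no other count of calls. With it, 128 and 38 of all genes were called for control and knockout L-GMPs against non-leukaemic progenitors. In the other comparisons with a count of 0, it called 0 of all genes. With source animal as random block, knockout L-GMPs against non-leukaemic progenitors gave 1 call, where 5.67% of all genes were higher and 4.39% lower. The difference of effects gave 0, where 1.66% were higher and 0.612% lower. The filter on low values gave 5 and 2. Of the 13447 genes that passed it, 11.3% were higher and 9.52% lower in the former, and 3.72% and 1.19% in the latter. Median centring gave 5 for the former, and equal weight per sample 2 for the difference. For these, shares over all genes are not given here. Without both samples of the low-Meis1 mouse, knockout L-GMPs against non-leukaemic progenitors gave 7 calls and a median of -0.13, and MLL-AF9 CMPs against KSLs a median of 0.044; without both samples of the other paired mouse, control and knockout L-GMPs against non-leukaemic progenitors gave 13 and 12 calls (the former a median of 0.24), MLL-AF9 CMPs against KSLs 14 and against knockout CMPs 12. Leaving out 1 sample gave 0 to 2 calls for knockout CMPs, 0 to 4 for knockout against control L-GMPs, 3 to 12 for control and 2 to 10 for knockout L-GMPs against non-leukaemic progenitors (median of the latter -0.17 to 0.18), 1 to 16 for MLL-AF9 CMPs against KSLs (median -0.033 to 0.51), 2 to 6 for MLL-AF9 against non-transplanted knockout CMPs, 20 to 30 for control and 15 to 30 for knockout L-GMPs against GMPs (median of the latter -0.86 to -0.54), 0 to 8 for secondary against primary and 0 to 4 for the difference of effects (median 0.054 to 0.36). The cause was not tested.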
